A study of Homo sapiens with 6 samples.

Results

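The genes described here are 40 genes of the NRF2 pathway and of antioxidant defense, chosen by gene symbol. A row was found for 37 of them among the 12499 genes of the deposited count table, and all 37 passed the filter on low counts that left 12462 genes for testing. *AKR1B10*, *GSTM3* and *MGST1* had no row and were not analyzed here. The counts come from HaCaT cells, an immortalized line of human keratinocytes, infected for 48 hours with a lentivirus carrying the *ATF7* coding sequence (LV-*ATF7*) or with a negative control lentivirus (LV-NC). Cells of both groups were then kept in high glucose (HG, 25 mM) for 24 hours, so no group shows the cells without HG or without a virus. Each group has 3 libraries from a single cell line, and nothing states that the replicates were separate cultures, so the p-values measure the spread between these libraries, which may be technical. The comparison asks which of these defense genes differed in mRNA level between the groups.

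NRF2, encoded by *NFE2L2*, is a transcription factor that KEAP1 holds in the cytoplasm and hands over for degradation. Electrophiles and oxidants modify KEAP1, so that NRF2 accumulates, pairs with a small MAF protein and binds the antioxidant response element (ARE) near its target genes, a place that BACH1 otherwise occupies as a repressor. Its targets make and recycle glutathione, feed the thioredoxin system, remove quinones and heme, store iron and supply NADPH, and in keratinocytes this response is part of the defense against oxidants and xenobiotics from the environment. NRF2 is controlled mainly as a protein, which these mRNA counts do not measure.

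The ARE core was looked for in the promoters of the genes, since it is the sequence through which NRF2 reaches its targets. RefSeq promoters on GRCh38.p14, running from 250 bases before to 50 bases after the transcription start, were given for 30 of the 40 genes, as 44 promoters. The letters TGACNNNGC, searched on both strands, were found in 9 of these 44 promoters (20.5%), against 13.3% of all 35116 promoters of the same length. They stood in the promoters of *GCLM*, *ME1*, *GSTO1*, *GSTP1*, *MGST1*, *TXNRD1*, *GPX2* and *KEAP1*. These 8 genes include some that were lower, some that were higher and some that were not called in the comparison below. The stretches of 4 of them are shown because the genes went different ways: *TXNRD1* and *GCLM* were lower in the libraries labeled LV-*ATF7*, *GPX2* was higher and *GSTP1* was not called. Each runs 5′ to 3′ along the strand of its gene, with the ARE core in capitals, which reads as its reverse complement where it begins with GC. Annotation in GENCODE release 29 places the first *TXNRD1* stretch upstream of the gene, the *GCLM* stretch across its first base and the other 3 in untranslated exon sequence of the gene itself.
*TXNRD1* (chr12:104215670-104215698, plus strand): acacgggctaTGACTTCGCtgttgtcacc
*TXNRD1*, second promoter (chr12:104286920-104286948, plus strand): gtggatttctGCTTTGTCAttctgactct
*GCLM* (chr1:93909446-93909474, minus strand): tacgatttctGCTTAGTCAttgtcttcca
*GPX2* (chr14:64942849-64942877, minus strand): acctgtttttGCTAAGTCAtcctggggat
*GSTP1* (chr11:67583736-67583764, plus strand): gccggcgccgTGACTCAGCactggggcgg
The *GSTP1* core also holds the AP-1 site TGACTCA, so the same letters answer to both motifs. The AP-1 site (TGACTCA or TGAGTCA) was found in 3 of the 44 promoters (6.82%, against 4.95% of all), those of *ME1*, *GSTP1* and *BACH1*. The cAMP response element TGACGTCA, to which factors of the ATF family bind, was found in 0 of the 44 promoters, against 1.85% of all. A match describes the letters in this window and is not a measured binding site.

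Several properties of the libraries touch the values below. Total counts ran from 16686472 to 20562768 per library. *ATF7* itself went against the labels, at 50.6, 46.4 and 52.2 CPM (read counts relative to library size, scaled by TMM) in the LV-NC libraries against 21.9, 25.7 and 28.0 CPM in those labeled LV-*ATF7* (log2 fold change -0.98, adjusted p = 1.89e-04 by edgeR's quasi-likelihood test). This fall was called in 13 of 13 alternative fits (log2 fold change -1.15 to -0.89). The paper reports a check of *ATF7* overexpression in infected HaCaT cells by qRT-PCR and Western blot. The exons of *ATF7* overlap other genes over 43.8% of their bases, and how such reads were counted is not given in the sources used here. Why *ATF7* went against the labels was not tested. Every direction below follows the deposited labels, which *ATF7* did not bear out. LV-NC replicate 1 stood apart from LV-NC replicates 2 and 3, and values without it stand beside many of the genes below. The 7 keratinocyte and general epithelial markers all had a row. Their summed level was 1047 to 1696 CPM in the LV-NC libraries against 5093 to 5584 CPM in those labeled LV-*ATF7*. Most of this rise was *KRT5* (mean 266 against 3354 CPM). *TP63*, *SFN* and *ITGA6* were called higher too, *EPCAM* (mean 298 against 181 CPM) and *KRT14* (mean 8.06 against 1.55 CPM) were called lower, and *CDH1* was not called. *KRT14* was at 0.375, 12.5 and 11.3 CPM in the LV-NC libraries against 1.45, 1.38 and 1.82 CPM. LV-NC replicate 1 thus lay below every library labeled LV-*ATF7*, and the *KRT14* call held in 5 of 12 alternatives. The summed level of the fibroblast markers with a row (2 of 6) was 33.1 to 42.7 against 17.3 to 21.7 CPM, of endothelial markers (2 of 4) 1.12 to 5.50 against 84.6 to 89.9 CPM, almost all of it *CDH5*, and of melanocyte markers (1 of 5) 1.87 to 2.20 against 3.42 to 6.03 CPM. Of the monocyte and macrophage markers, 3 of 6 had a row, with a summed level of 5.57 to 8.13 against 9.38 to 12.7 CPM. In that sum *CD14* was called higher (mean 1.61 against 8.17 CPM), *CSF1R* was called lower (2.79 against 0.611 CPM) and *ITGAM* was not called. The defining markers *PTPRC*, *PECAM1*, *COL1A2*, *MLANA* and *SOX10* had no row. The part of these differences in the results below was not tested, and in bulk samples fewer cells of a type and less RNA per cell cannot be told apart.

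Antioxidant genes went both ways between the groups. Superoxide dismutase 2 (*SOD2*), peroxiredoxin 5 (*PRDX5*), *GPX2*, *GPX3*, *MGST2*, *AKR1C1*, *AKR1C2* and ferritin heavy chain (*FTH1*) were higher in the libraries labeled LV-*ATF7*. *HMOX1*, *TXNRD1*, *SRXN1*, both glutamate-cysteine ligase subunits (*GCLC* and *GCLM*), *NQO1*, *PRDX1*, *MGST3* and *SOD1* were lower. With a threshold of 0.05 on the adjusted p (Benjamini-Hochberg over all genes tested, edgeR's quasi-likelihood test), 21 of 37 differed (56.8%), against 67.6% of all genes. Of these, 10 were higher and 11 lower in the libraries labeled LV-*ATF7*, where 34.7% of all genes were higher and 32.9% lower. When a change of 1.5-fold or more was also required, 18 were called, 9 in each direction, against 52.9% of all genes. The 3 libraries of each group did not overlap for 22 of the 37, against 72.7% of all genes. The median log2 fold change was -0.01 (0.00 for all genes) and the median of its absolute size 0.62 (0.67 for all genes). Each of these shares is below that of the whole table.

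**Figure D1:**
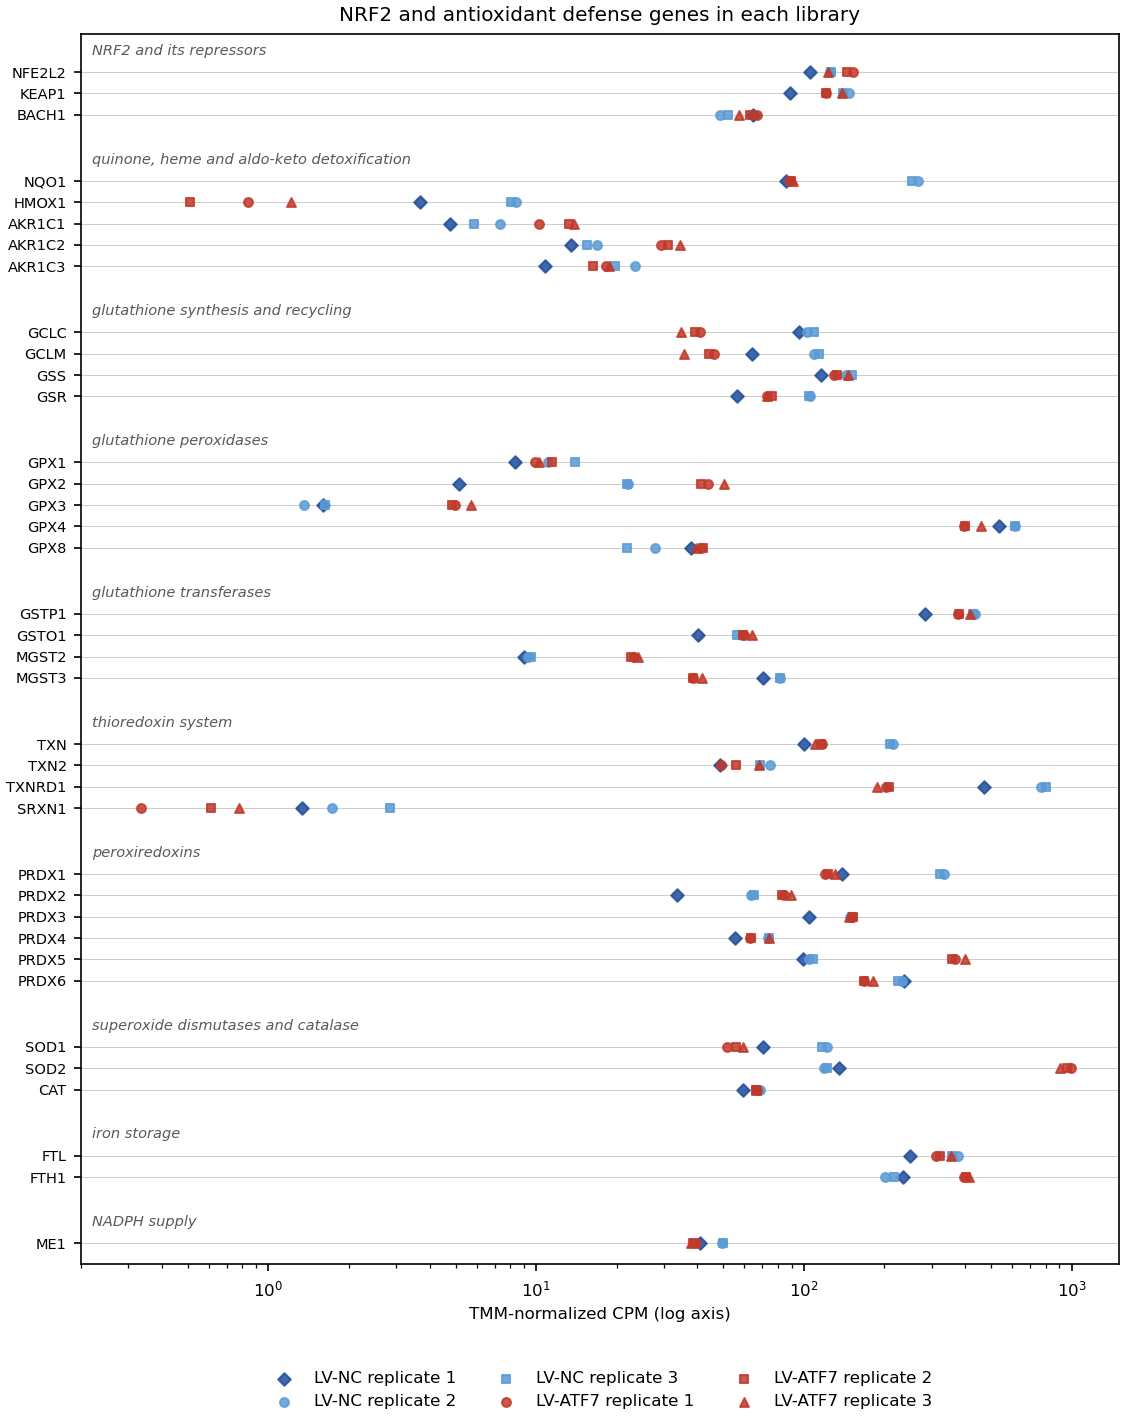
Level of each of the 37 genes in each of the 6 libraries, as TMM-normalized CPM on a log axis, grouped by role (blue, LV-NC, with replicate 1 as dark diamonds; red, LV-ATF7). *SOD2* and *PRDX5* show the red points far to the right of the blue, *HMOX1* and *TXNRD1* far to the left, and for *NQO1* the diamond of LV-NC replicate 1 lies on the red points.

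LV-NC replicate 1 was low in most of these genes. In 31 of the 37 genes (83.8%) it was the lowest of the 3 libraries labeled LV-NC, against 43.7% of all genes tested. Its level lay over 2-fold below the mean of the other LV-NC libraries for 5 of the 37 genes (*NQO1*, *HMOX1*, *GPX2*, *TXN* and *PRDX1*). Of all genes tested, 6.12% lay over 2-fold from that mean in either direction. LV-NC replicate 1 was nearer to the LV-*ATF7* mean than both other LV-NC libraries for 48.6% of the 37 genes. For all genes tested this share was 47.9%, much the same. In the fit without this library, 30 of the 37 were called, 11 higher and 19 lower, against 80.1% of all genes. Of all genes called in that fit, 49.8% were higher. The median log2 fold change of the 37 was -0.18, while the median of all genes moved by -0.01 from that with all libraries. The number of genes called lower differed between fits. It was 11 in the main test with all libraries and 19 without LV-NC replicate 1. With sample quality weights, a fit that kept this library, it was 21. Over all 13 alternative fits run, 17 genes were called in each fit that gave a value, 7 of them higher and 10 lower. The share of all genes called in each of these fits was not computed, so this count has no background beside it.

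**Figure D2:**
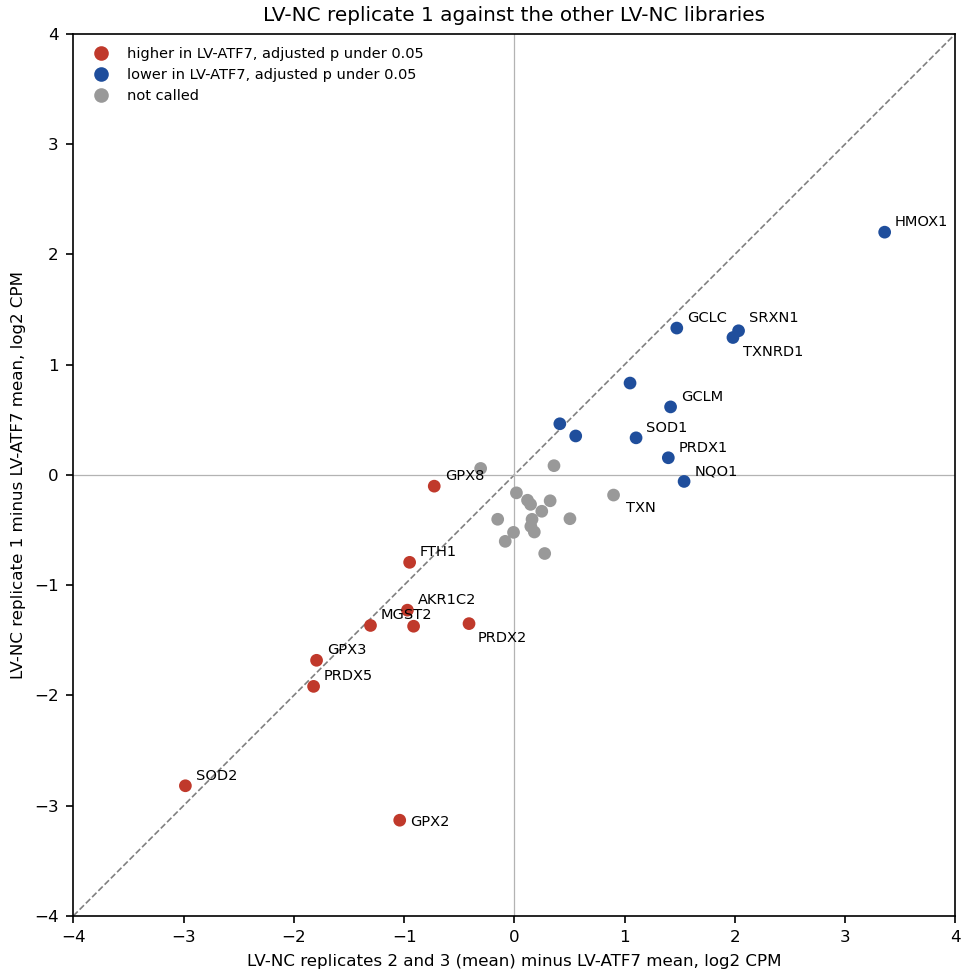
Place of LV-NC replicate 1 for each gene: the x axis gives the mean of LV-NC replicates 2 and 3 and the y axis LV-NC replicate 1, both as log2 CPM minus the mean of the LV-ATF7 libraries, with the dashed line marking equal values (red and blue, called higher and lower in the libraries labeled LV-ATF7; gray, not called). Most points lie below the dashed line, *GPX2* farthest, and *NQO1* and *PRDX1* lie near 0 on the y axis, the level of the LV-ATF7 libraries.

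The sensor and regulators at the head of the pathway were not called. Positions given with the gene identifiers, here and below, are whole genes in GENCODE release 29 (GRCh38). *NFE2L2* (ENSG00000116044, chr2:177227595-177392697, minus strand), which encodes NRF2, was at 106, 125 and 126 CPM in LV-NC replicates 1, 2 and 3 and at 153, 145 and 123 CPM in LV-*ATF7* replicates 1, 2 and 3. The groups overlapped, and the log2 fold change, here and below from LV-NC to LV-*ATF7*, was 0.24 (95% interval -0.04 to 0.51, adjusted p = 0.108). *KEAP1*, the adaptor that brings NRF2 to its ubiquitin ligase, was at 88.4, 148 and 139.8 CPM against 121, 121 and 139 CPM. The lowest library of all 6 was LV-NC replicate 1, and the log2 fold change was 0.02 (95% interval -0.41 to 0.45), or -0.20 without that library (adjusted p = 0.0186, range over the alternatives 0.00877 to 0.994). *BACH1*, the repressor that competes for the ARE, was at 64.8, 48.8 and 51.9 CPM against 66.9, 63.0 and 57.2 CPM. LV-NC replicate 1 was here the highest of its group and at the level of the libraries labeled LV-*ATF7*. The log2 fold change was 0.18 (95% interval -0.12 to 0.48), and 0.29 without it (adjusted p = 0.00551, range 3.04e-04 to 0.957). *NFE2L2* passed the threshold without LV-*ATF7* replicate 3 (0.33, adjusted p = 0.0462, range 0.0063 to 0.573), the library nearest to the LV-NC group. In GENCODE release 29, other genes overlap 20.9% of the exon bases of *NFE2L2*. The gene length behind its deposited FPKM was 8.53 times its summed transcript exon length in that release, against a median of 1.001 over genes. The gene model that was counted may therefore differ from the one used for the overlap.

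Among the quinone, heme and aldo-keto enzymes, 2 genes were higher, 2 lower and 1 not called. *HMOX1* (ENSG00000100292, chr22:35380361-35394214, plus strand) encodes heme oxygenase 1, which opens heme to biliverdin, iron and carbon monoxide, and is a classic target of both NRF2 and BACH1. *HMOX1* was at 3.69, 8.44 and 8.05 CPM in the LV-NC libraries against 0.837, 0.510 and 1.22 CPM in those labeled LV-*ATF7*, so the size of its fold rests on few counts in the latter. All LV-*ATF7* libraries lay below all LV-NC libraries, and the log2 fold change was -2.98 (SE 0.42, adjusted p = 4.07e-04), a level 7.86-fold lower. Without LV-NC replicate 1 it was -3.30. *NQO1* (ENSG00000181019, chr16:69706996-69726951, minus strand), the quinone reductase most often used as a readout of NRF2, was at 85.9, 266 and 254 CPM against 88.5, 89.2 and 91.0 CPM. LV-NC replicate 1 was as low as the libraries labeled LV-*ATF7*, while LV-NC replicates 2 and 3 were almost 3 times higher. Its log2 fold change was -1.17 (SE 0.36, adjusted p = 0.0207), and -1.56 without LV-NC replicate 1 (adjusted p = 2.42e-16). Leaving out any 1 of the other 5 libraries ended the call. The log2 fold change was then -0.95 without LV-NC replicate 2, -1.01 without LV-NC replicate 3, and -1.16, -1.17 and -1.18 without LV-*ATF7* replicates 1, 2 and 3, with adjusted p from 0.0542 to 0.078.

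The aldo-keto reductases of the AKR1C family reduce ketosteroids and reactive aldehydes, and lie side by side on chromosome 10. *AKR1C1* (ENSG00000187134, chr10:4963253-4983283, plus strand) was at 4.77, 7.34 and 5.85 CPM in the LV-NC libraries against 10.3, 13.3 and 13.8 CPM in those labeled LV-*ATF7*. *AKR1C2* (ENSG00000151632, chr10:4987400-5018031, minus strand) was at 13.5, 16.8 and 15.5 CPM against 29.4, 31.0 and 34.6 CPM. Neither gene overlapped between groups, and both stood 2.08-fold above LV-NC in the libraries labeled LV-*ATF7* (log2 fold changes 1.06, SE 0.20, adjusted p = 0.00214, and 1.05, SE 0.13, adjusted p = 2.05e-04). *AKR1C3*, which also makes prostaglandin F2 alpha, was at 10.8, 23.3 and 19.7 CPM against 18.3, 16.3 and 18.7 CPM (log2 fold change -0.02, 95% interval -0.61 to 0.58), or -0.30 when LV-NC replicate 1 was left out (adjusted p = 0.0202, range 0.0129 to 0.992). The paralogs are alike in sequence: 38.9% of the windows of 50 bases in the exons of *AKR1C2* and 28.6% of those of *AKR1C1* also occur in another gene, so the counting could have split reads between them. With the counts of the 3 genes summed, the log2 fold change was 0.66 (SE 0.17, adjusted p = 0.010).

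The genes for the first and rate-limiting step of glutathione synthesis were lower in the libraries labeled LV-*ATF7*. Glutamate-cysteine ligase joins glutamate to cysteine, with *GCLC* as its catalytic and *GCLM* as its modifier subunit. *GCLC* (ENSG00000001084, chr6:53497341-53616970, minus strand) was at 96.2, 103 and 109 CPM in the LV-NC libraries against 40.8, 39.3 and 34.8 CPM in those labeled LV-*ATF7*, without overlap. It changed by -1.42 on the log2 scale (SE 0.10, adjusted p = 1.38e-05), 2.68-fold lower, and LV-NC replicate 1 stood close to the other control libraries. *GCLM* (ENSG00000023909, chr1:93885205-93909456, minus strand), whose promoter stretch is printed above, was at 63.9, 109 and 114 CPM against 46.1, 44.1 and 35.7 CPM. LV-NC replicate 1 lay between the groups, and the log2 fold change was -1.19 (SE 0.22, adjusted p = 0.00169), or -1.43 without that library. *GSS*, the synthetase that adds glycine in the next step, was not called (log2 fold change -0.01, 95% interval -0.29 to 0.27, adjusted p = 0.947). *GSR*, the reductase that turns oxidized glutathione back with NADPH, was at 56.2, 105 and 105 CPM against 73.1, 76.2 and 73.1 CPM. The LV-*ATF7* libraries lay between LV-NC replicate 1 and the other LV-NC libraries. Its log2 fold change was -0.26 (adjusted p = 0.322), and -0.52 without LV-NC replicate 1 (adjusted p = 9.48e-07, range 9.48e-07 to 0.596).

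Glutathione peroxidases, which reduce peroxides with glutathione, went in both directions, with 3 genes higher, 1 lower and 1 not called. *GPX2* (ENSG00000176153, chr14:64939152-64942905, minus strand), the epithelial form, was at 5.14, 22.0 and 21.9 CPM in the LV-NC libraries against 44.0, 41.4 and 50.2 CPM in those labeled LV-*ATF7*. All LV-*ATF7* libraries were above all LV-NC libraries, and within LV-NC replicate 1 was the farthest down. The log2 fold change was 1.47 (SE 0.45, adjusted p = 0.0189), 1.02 without LV-NC replicate 1, and it lost the call without LV-*ATF7* replicate 1 (1.49, adjusted p = 0.0515) or replicate 3 (1.39, adjusted p = 0.0762; range over the alternatives 1.47e-09 to 0.0762). *GPX3* (ENSG00000211445, chr5:151020438-151028993, plus strand), the secreted form, was at 1.61, 1.36 and 1.62 CPM against 4.97, 4.84 and 5.70 CPM. It was low in every library, the replicates lay close together, and its level was 3.37-fold that of LV-NC in the libraries labeled LV-*ATF7* (log2 fold change 1.75, SE 0.20, adjusted p = 1.20e-04). *GPX4*, which repairs lipid hydroperoxides in membranes and guards against ferroptosis, was at 534, 617 and 612 CPM against 398, 401 and 459 CPM. It fell by 0.49 on the log2 scale (SE 0.11, adjusted p = 0.00413), less than 1.5-fold, without overlap. *GPX8* of the endoplasmic reticulum passed the threshold narrowly (log2 fold change 0.48, adjusted p = 0.0485) and in 5 of 13 alternatives. It was not called without LV-NC replicate 2 (0.41), LV-NC replicate 3 (0.27), or LV-*ATF7* replicate 1 (0.48), 2 (0.47) or 3 (0.51), but was called with LV-NC replicate 1 left out (0.69, range of adjusted p 1.42e-07 to 0.213). *GPX1*, the cytosolic form, was not called (log2 fold change -0.08, 95% interval -0.55 to 0.38), and 14.7% of its exon windows occur in other genes, among them a pseudogene.

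The microsomal glutathione transferases *MGST2* and *MGST3* went opposite ways. Both belong to a family of membrane enzymes that conjugate glutathione and, in part, reduce lipid peroxides. *MGST2* (ENSG00000085871, chr4:139665768-139740745, plus strand) was at 9.05, 9.33 and 9.55 CPM in the LV-NC libraries against 23.2, 22.7 and 24.1 CPM in those labeled LV-*ATF7* (log2 fold change 1.33, SE 0.12, adjusted p = 3.46e-05). *MGST3* (ENSG00000143198, chr1:165630861-165661796, plus strand) was at 70.2, 81.5 and 81.6 CPM against 38.5, 38.4 and 41.5 CPM (log2 fold change -0.98, SE 0.10, adjusted p = 7.72e-05). The groups did not overlap for either gene, and the spread within each group was small beside the difference. The cytosolic transferase *GSTP1*, whose promoter stretch holds the ARE core with an AP-1 site, was at 282, 436 and 429 CPM against 376, 379 and 417 CPM. Its log2 fold change was 0.03 (95% interval -0.36 to 0.42), and -0.17 without LV-NC replicate 1 (adjusted p = 0.0203, range 0.02 to 0.956). *GSTO1*, which also reduces dehydroascorbate, was not called (log2 fold change 0.24, 95% interval -0.11 to 0.58), although its groups did not overlap.

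In the thioredoxin system 2 genes were lower and 2 not called. *TXNRD1* (ENSG00000198431, chr12:104215779-104350305, plus strand) encodes the cytosolic selenoenzyme that reduces thioredoxin with NADPH, and its promoters hold the ARE core printed above. It was at 471, 768 and 803 CPM in the LV-NC libraries against 202, 208 and 187 CPM in those labeled LV-*ATF7*. Even LV-NC replicate 1, the lowest control library, was more than 2-fold above every library labeled LV-*ATF7*. The log2 fold change was -1.77 (SE 0.20, adjusted p = 1.13e-04), 3.42-fold lower, and -2.0 without LV-NC replicate 1. *SRXN1* (ENSG00000271303, chr20:646615-653370, minus strand) encodes sulfiredoxin, which restores overoxidized peroxiredoxins. It was at 1.34, 1.73 and 2.84 CPM against 0.335, 0.612 and 0.774 CPM, so its fold rests on few counts. The groups did not overlap, and the log2 fold change was -1.76 (SE 0.42, adjusted p = 0.00598), or -1.98 without LV-NC replicate 1, but 85% of its exon bases lie under another gene on the same strand. *TXN*, thioredoxin itself, was at 100.4, 215 and 211 CPM against 117, 115 and 109.8 CPM. As for *NQO1*, LV-NC replicate 1 was at or below the level of the libraries labeled LV-*ATF7*. *TXN* was not called in the main test (log2 fold change -0.62, 95% interval -1.22 to -0.02, adjusted p = 0.0624). It was called in 4 of 13 alternatives, with adjusted p over all of them from 1.39e-11 to 0.172. One was the fit without LV-NC replicate 1 (-0.92, adjusted p = 1.39e-11). The others kept all libraries: DESeq2 (adjusted p = 0.02), library size only (0.0235) and sample quality weights (5.79e-10). The mitochondrial thioredoxin *TXN2* had a log2 fold change of -0.15 (95% interval -0.57 to 0.28), and -0.33 without LV-NC replicate 1 (adjusted p = 0.00351, range 4.78e-04 to 0.869).

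Peroxiredoxins are abundant thiol enzymes that remove hydrogen peroxide, and of the 6 genes 2 were higher, 2 lower and 2 not called. *PRDX5* (ENSG00000126432, chr11:64318088-64321811, plus strand), found in mitochondria, peroxisomes and cytosol, was at 99.3, 104 and 108 CPM in the LV-NC libraries against 368, 358 and 401 CPM in those labeled LV-*ATF7*. LV-NC replicate 1 stood with its group, and *PRDX5* was 3.62-fold higher (log2 fold change 1.85, SE 0.092, adjusted p = 2.76e-06). *PRDX1* (ENSG00000117450, chr1:45511036-45523047, minus strand), a cytosolic form and known NRF2 target, was at 139, 333 and 322 CPM against 119.7, 123 and 131 CPM. LV-NC replicate 1 lay just above the libraries labeled LV-*ATF7* and far below LV-NC replicates 2 and 3. *PRDX1* had a log2 fold change of -1.09 (SE 0.29, adjusted p = 0.0111), or -1.42 without that library, and *MMACHC* overlaps 24.9% of its exon bases on the opposite strand. *PRDX2* (ENSG00000167815, chr19:12796820-12801859, minus strand), the other main cytosolic form, was at 33.5, 63.2 and 65.2 CPM against 84.1, 82.6 and 89.8 CPM. All libraries labeled LV-*ATF7* were above those labeled LV-NC, with LV-NC replicate 1 lowest. Its log2 fold change was 0.66 (SE 0.23, adjusted p = 0.032) and 0.39 without that library. The call was lost without LV-*ATF7* replicate 1 (0.68), 2 (0.69) or 3 (0.63) and with library size only as the scaling (0.51), with adjusted p over the alternatives from 4.21e-05 to 0.105.

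*PRDX6*, which also acts on phospholipid hydroperoxides, fell by 0.43 on the log2 scale (SE 0.082, adjusted p = 0.00215). It was at 237, 233 and 225 CPM against 168, 168 and 181 CPM, without overlap and less than 1.5-fold lower. Mitochondrial *PRDX3* (log2 fold change 0.16, 95% interval -0.17 to 0.49) and *PRDX4* of the endoplasmic reticulum (-0.02, 95% interval -0.34 to 0.30) were not called.

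The superoxide dismutases, which turn superoxide into hydrogen peroxide, changed in opposite directions. Mitochondrial *SOD2* (ENSG00000291237) was at 135, 119 and 122 CPM in the LV-NC libraries against 998, 959.9 and 902 CPM in those labeled LV-*ATF7*. It had the largest rise of the 37 genes, 7.61-fold (log2 fold change 2.93, SE 0.10, adjusted p = 9.77e-07), and LV-NC replicate 1 was the highest of its group. Its identifier is not in GENCODE release 29, so no position is given. Cytosolic *SOD1* (ENSG00000142168, chr21:31659622-31668931, plus strand) was at 70.1, 122 and 117 CPM against 51.9, 55.6 and 59.5 CPM. LV-NC replicate 1 was again the lowest control library, and *SOD1* was 1.85-fold lower in the libraries labeled LV-*ATF7* (log2 fold change -0.89, SE 0.20, adjusted p = 0.00466, and -1.12 without that library). Catalase (*CAT*), which breaks down hydrogen peroxide in peroxisomes, was at 59.4, 68.5 and 66.2 CPM against 66.9, 66.5 and 66.1 CPM. The groups overlapped almost fully, and the log2 fold change was 0.04 (95% interval -0.17 to 0.25).

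Of the ferritin subunits, which together form the shell that stores iron, 1 was called. The heavy chain *FTH1* (ENSG00000167996, chr11:61959718-61967660, minus strand), which oxidizes iron for storage, was at 234, 202 and 218 CPM in the LV-NC libraries against 397, 403 and 416 CPM in those labeled LV-*ATF7*. No LV-NC library came near those labeled LV-*ATF7*, and the log2 fold change was 0.90 (SE 0.092, adjusted p = 7.73e-05), 1.86-fold higher. The light chain *FTL* was at 249, 378 and 358 CPM against 312, 322 and 355 CPM (log2 fold change 0.01, 95% interval -0.36 to 0.37), and -0.18 without LV-NC replicate 1 (adjusted p = 0.0175, range 0.0175 to 0.969). Pseudogenes that carry the name of a ferritin gene number 25 for *FTH1* and 16 for *FTL*, counted by name only. Of the exon windows of 50 bases, 19.9% for *FTH1* and 18.3% for *FTL* also occur in another gene. *BEST1* on the opposite strand overlaps 62.4% of the exon bases of *FTH1*. Malic enzyme 1 (*ME1*), which makes NADPH in the cytosol and has an ARE core in its promoter, was at 41.0, 49.4 and 49.96 CPM against 39.5, 38.7 and 38.0 CPM. The groups did not overlap, with LV-NC replicate 1 next to the libraries labeled LV-*ATF7*, and *ME1* just missed the threshold (log2 fold change -0.27, 95% interval -0.52 to -0.02, adjusted p = 0.0518). It was called in 5 of 13 alternatives (range of adjusted p 7.69e-05 to 0.138), among them the fit without LV-NC replicate 1 (-0.38, adjusted p = 3.56e-04).

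**Figure D3:**
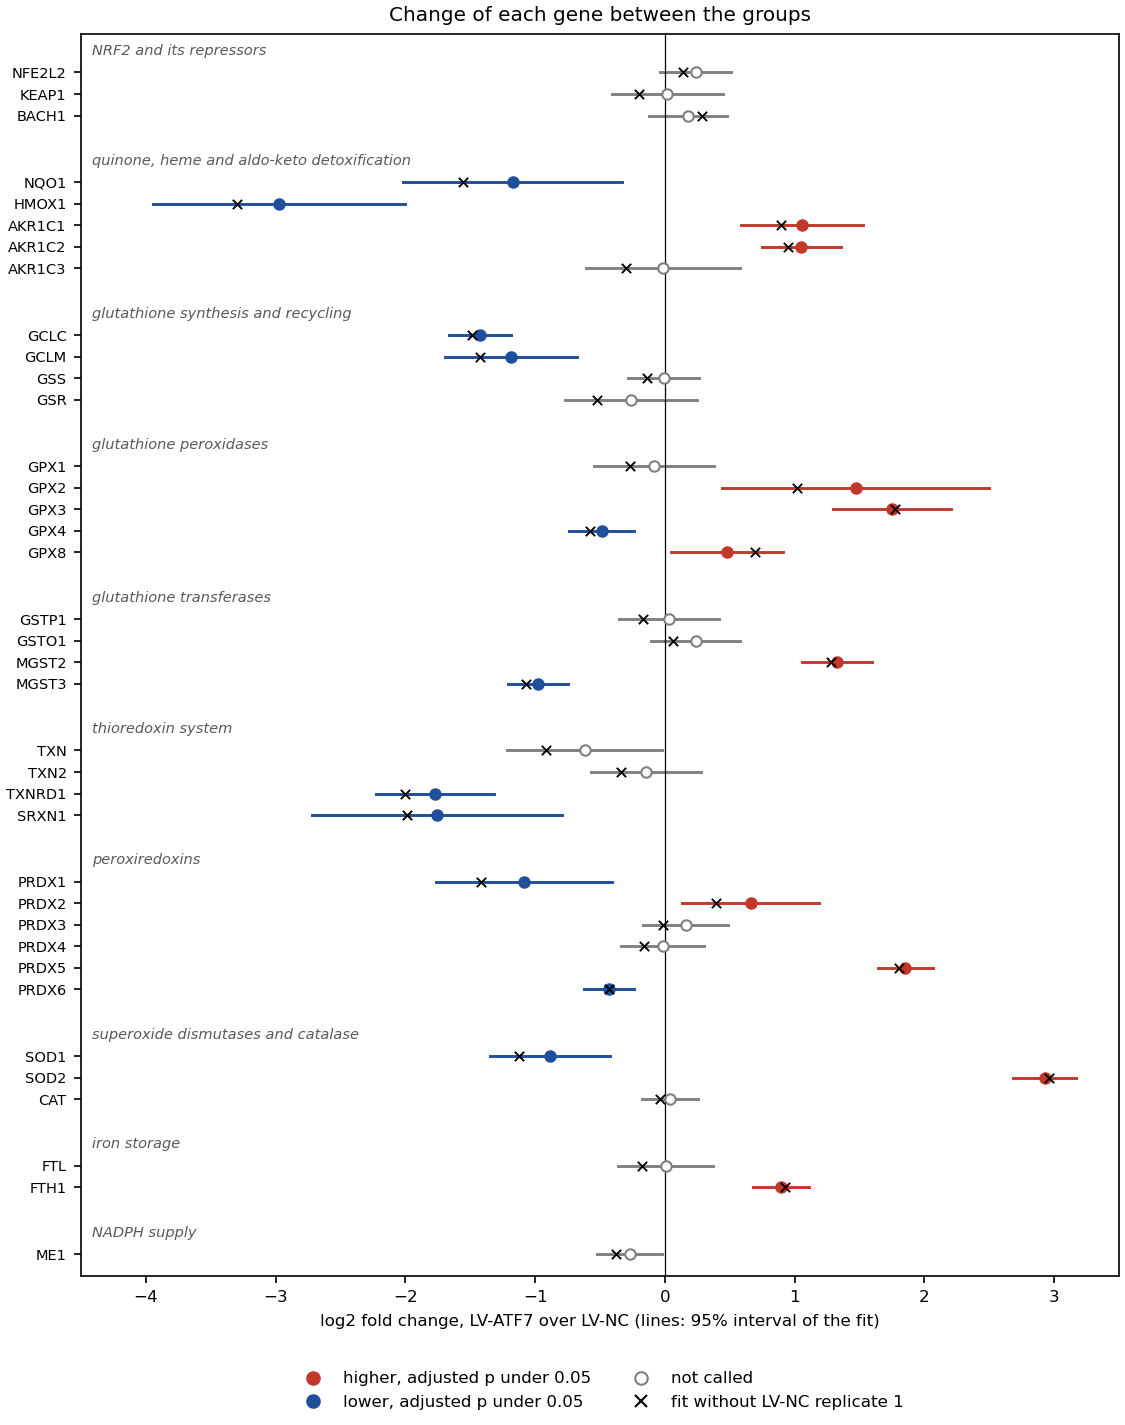
Log2 fold change from LV-NC to LV-ATF7 for each of the 37 genes by role, with the 95% interval of the edgeR fit (filled, adjusted p under 0.05; open, not called) and the value of the fit without LV-NC replicate 1 (cross). Several enzyme families hold genes on both sides of 0, while the points of the thioredoxin system and of glutathione synthesis and recycling all lie at or below 0. Most crosses lie to the left of their points, as for *NQO1*, *GPX2* and *TXN*.

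Other genes around NRF2 and redox control were read from lists chosen by function, with earlier results of these data known. They named 92 genes, of which 81 had a row, all tested. Of these 58 were called (71.6%, against 67.6% of all genes), 27 higher and 31 lower in the libraries labeled LV-*ATF7*, where 34.7% of all genes were higher and 32.9% lower. The median log2 fold change was -0.13. Among 13 other regulators and partners of NRF2, 8 were lower, 0 higher and 5 not called (61.5% called). Of the 8, 4 were called in every alternative that gave a value, and *RBX1*, *BTRC*, *NFE2L1* and *SQSTM1* were not. The largest falls were those of *BACH2*, a BACH1 relative (log2 fold change -4.59, adjusted p = 2.02e-06), and of *SQSTM1* (log2 fold change -1.10, adjusted p = 0.0127), the autophagy adaptor that binds KEAP1. *BACH2* was at 13.1, 11.8 and 11.9 CPM in the LV-NC libraries against 0.614, 0.408 and 0.498 CPM in those labeled LV-*ATF7*. The size of its fold thus rests on few counts in the latter. *SQSTM1* was at 513, 1252 and 1256 CPM against 446, 461 and 502 CPM, so LV-NC replicate 1 lay near the libraries labeled LV-*ATF7*, as it did for *NQO1*. The log2 fold change of *SQSTM1* was -1.44 without that library, and -1.06 without LV-*ATF7* replicate 1 (adjusted p = 0.052).

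Cystine uptake and glutathione turnover had 3 genes higher, 4 lower and 1 not called of 8 (87.5% called, against 67.6% of all genes). *CTH*, which makes cysteine from cystathionine, was at 51.0, 50.4 and 51.5 CPM against 20.3, 21.7 and 20.6 CPM (log2 fold change -1.29, adjusted p = 1.31e-05). *SLC7A11*, the cystine importer that feeds glutathione synthesis, was at 264, 165 and 177 CPM against 94.2, 87.3 and 71.2 CPM (log2 fold change -1.26, adjusted p = 6.54e-04). Here LV-NC replicate 1 was the highest library and not the lowest. The exporter *ABCC4* (log2 fold change 1.30, adjusted p = 3.33e-04) and *GGCT* (log2 fold change 0.94, adjusted p = 0.0136), which cleaves gamma-glutamyl peptides, were higher.

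Enzymes that supply NADPH, the reductant of both the glutathione and the thioredoxin system, had 6 genes higher, 2 lower and 1 not called of 9 (88.9% called, against 67.6% of all genes). Of these, 4 of the higher and 1 of the lower were called in every alternative. *NNT*, the proton-driven transhydrogenase of mitochondria, was at 15.7, 14.2 and 13.9 CPM against 83.7, 76.8 and 72.6 CPM (log2 fold change 2.41, adjusted p = 1.79e-06). *PGLS* of the pentose phosphate pathway rose by 1.51 log2 units (adjusted p = 1.22e-05). Mitochondrial *IDH2* (log2 fold change -1.16, adjusted p = 0.00128) and *MTHFD2* (log2 fold change -0.34, adjusted p = 0.0393) were lower. The *MTHFD2* call was lost without replicate 1, 2 or 3 of LV-*ATF7*, with log2 fold changes of -0.37, -0.39 and -0.26 and adjusted p of 0.0763, 0.0632 and 0.127.

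Further detoxification and export genes linked to NRF2 had 6 genes higher, 4 lower and 6 not called of 16 (62.5% called, near the 67.6% of all genes). The aldehyde dehydrogenase *ALDH3A1* was at 1.55, 2.25 and 2.89 CPM in the LV-NC libraries against 50.1, 51.7 and 58.2 CPM in those labeled LV-*ATF7* (log2 fold change 4.58, adjusted p = 2.05e-06), and the exporter *ABCC3* rose by 2.56 log2 units (adjusted p = 2.97e-05). *OSGIN1*, an oxidative stress-induced growth inhibitor, had a log2 fold change of -1.83 (adjusted p = 4.02e-04) and the epoxide hydrolase *EPHX1* of -0.98 (adjusted p = 0.00178). Of 17 other thiol and selenium genes, 2 were higher, 9 lower and 6 not called (64.7% called, again near that share). *TXNRD3* (log2 fold change 1.34, adjusted p = 0.00376, and 1.78 without LV-NC replicate 1), a thioredoxin reductase relative, and *MSRB2* (log2 fold change 1.32, adjusted p = 3.00e-04), a mitochondrial methionine sulfoxide reductase, rose. *SELENOT* (log2 fold change -1.32, adjusted p = 1.38e-05), a selenoprotein of the endoplasmic reticulum, and *SESN3* (log2 fold change -1.25, adjusted p = 3.08e-04), a sestrin, fell.

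**Figure D4:**
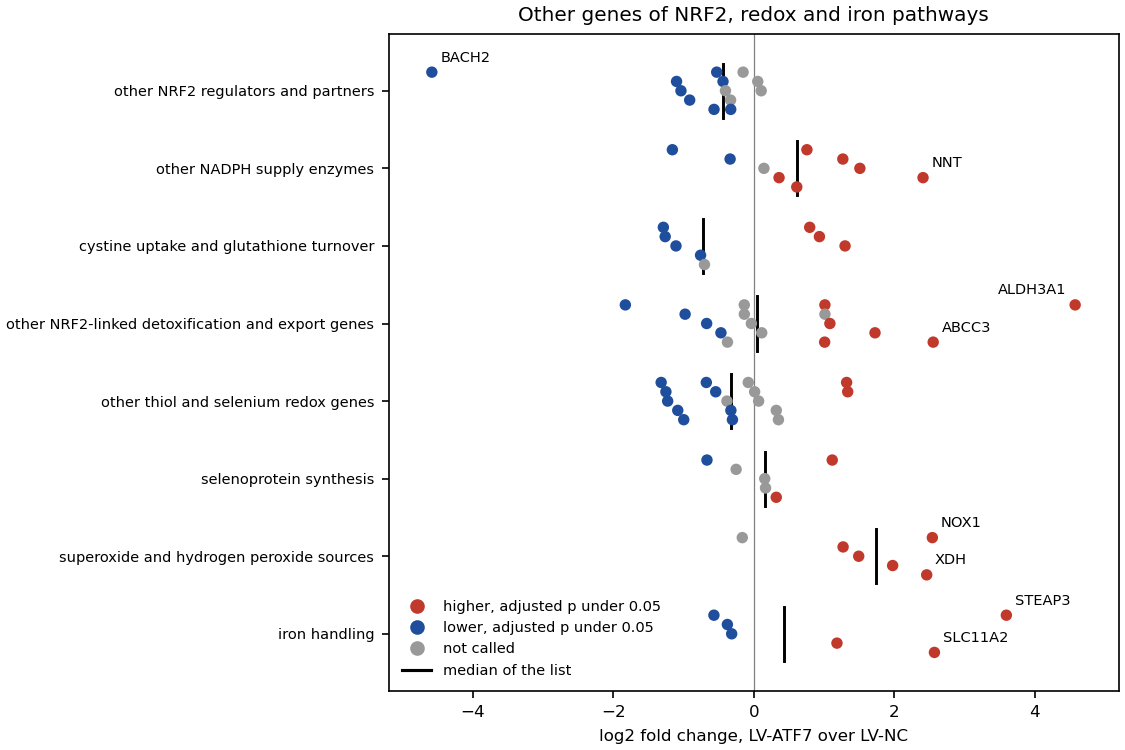
Log2 fold change from LV-NC to LV-ATF7 for 81 other genes in 8 lists of NRF2, redox and iron function (red, higher; blue, lower, at an adjusted p under 0.05; gray, not called; black line, median of the list). The list of regulators and partners has no red point, and the list of superoxide and hydrogen peroxide sources has no blue point.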

How the data were processed

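RNA-seq counts of 6 HaCaT libraries, 3 labeled LV-NC and 3 labeled LV-*ATF7*, were analyzed. The deposited values are unnormalized read counts of each gene on GRCh38 (per the submitters' processing notes), beside deposited FPKM values scaled by the authors by gene length and depth. The aligner, the counting program, the annotation and the strandedness are not given in the sources used here. The deposited fold changes and p-values of the authors' own comparison were not used, and the FPKM served only to compare gene lengths with GENCODE release 29. Because those lengths differed for several genes and the identifier of *SOD2* is not in that release, levels were not compared between genes.

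The main test was the quasi-likelihood F test of edgeR 4.0.16 under R 4.3.3 (glmQLFit, glmQLFTest), run on TMM-scaled counts that passed filterByExpr, without covariates, with Benjamini-Hochberg adjustment over 12462 genes and a threshold of 0.05. The SE is the size of the log2 fold change divided by the square root of F, and the 95% interval uses the t quantile of the fit. The scripts were tested on simulated data. The genes and lists were chosen with earlier results of these data known. Genes were named by rule: every member, those past 1.5-fold and the 3 regulators in full, and of other lists the 2 largest rises and 2 largest falls among called genes. Groups came from the deposited labels. Libraries of one group were not duplicates (chi-square per gene from 2.84 to 74.6), so each library counted as 1. The alternatives were DESeq2 1.42.0, scaling by upper quartile or by library size only, dropping the filter or asking for 10 counts in each library, limma 3.58.1 voom with sample quality weights, the replicate block, each library left out in turn and a fold change of at least 2. Motifs, exon overlaps and shared windows of 50 bases were computed in Python 3.11.15 from RefSeq promoters and GENCODE release 29, in which 36 of the 37 genes were found by identifier. Depth, between 16686472 and 20562768 counts, leaves counting error small except for genes near 1 CPM. A gene counted in the lists is not reported here by name.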

Additional observations from a re-analysis of the deposited data

How the results depend on the processing

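Under the 13 alternatives run, 17 of the 21 called genes were called each time a value was given, and *NQO1*, *GPX2*, *GPX8* and *PRDX2* were not. The same share was not computed for all genes. The number of genes called was 33 with sample quality weights, 21 of them lower, and lay between 17 and 30 when each library was left out in turn, with 10 to 19 lower. Of all genes, 10391 of 12462 were called with sample quality weights, 50.7% of these calls higher. The leave-one-out fits called 7290 to 10011 of all genes, of 12468 to 12497 tested. Among the leave-one-out fits the highest numbers came without LV-NC replicate 1, and the cause was not tested. With a fold change of at least 1.5 the leave-one-out fits gave 15 to 19 genes, and a fold change of at least 2 gave 14. The directions that reversed were all of genes not called in the main test. With library size only, which moved the median of all genes by -0.16, the log2 fold change was -0.14 for *KEAP1*, -0.13 for *GSTP1*, -0.12 for *CAT* and -0.15 for *FTL*, and 42.4% of all calls were higher in place of 51.3%. With sample quality weights the values were -0.21, -0.16, -0.011 and -0.17. With upper quartile scaling *AKR1C3* (0.0033) and *GSS* (0.0061) reversed, and *FTL* did with DESeq2 (-0.012) and with 10 counts required in every library (-0.011). Across the leave-one-out fits, the log2 fold change ran from -0.20 to 0.12 for *KEAP1*, -0.30 to 0.19 for *AKR1C3*, -0.14 to 0.028 for *GSS*, -0.27 to 0.075 for *GPX1*, -0.17 to 0.10 for *GSTP1*, -0.011 to 0.21 for *PRDX3*, -0.16 to 0.028 for *PRDX4*, -0.039 to 0.049 for *CAT* and -0.18 to 0.087 for *FTL*. Libraries with the same replicate number did not deviate together (correlations of deviations 0.058, -0.021 and 0.065). With the replicate block 21 genes were called, *AKR1C3* reversed to 0.045, and no call changed. *SRXN1* gave no value under the filter of 10 counts per library, and changes of the size of the median shift cannot be told apart from the scaling.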

Other observations

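Genes that make superoxide and hydrogen peroxide, the substrates of the enzymes above, were mostly higher in the libraries labeled LV-*ATF7*: of 6 such genes tested, 5 were higher, 0 lower and 1 not called, where 34.7% of all genes were higher and 32.9% lower. *XDH*, xanthine dehydrogenase, was at 6.91, 8.54 and 8.57 CPM in the LV-NC libraries against 41.9, 46.5 and 44.1 CPM in those labeled LV-*ATF7* (log2 fold change 2.46, adjusted p = 3.61e-06 by edgeR's quasi-likelihood test). *NOX1*, a catalytic subunit of the NADPH oxidases, was at 0.107, 0.210 and 0.174 CPM against 0.726, 1.12 and 1.11 CPM, a handful of reads per control library (log2 fold change 2.54, adjusted p = 0.00113). *DUOX2* and *DUOX1*, epithelial oxidases that release hydrogen peroxide, had log2 fold changes of 1.98 (adjusted p = 4.38e-04, and 2.41 without LV-NC replicate 1) and 1.5 (adjusted p = 1.35e-04), and *CYBA*, a subunit shared by several NADPH oxidases, of 1.27 (adjusted p = 1.08e-04). These last 3 genes were named after their values were seen. The list was chosen with earlier results of these data known, so its count is a description only.

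Iron handling had 3 genes higher and 3 lower of 6 tested, against 67.6% of all genes called. *IREB2*, 1 of the 3 lower, was not called without LV-NC replicate 3 or LV-*ATF7* replicate 2 or 3 (log2 fold change -0.34, -0.34 and -0.23, adjusted p = 0.0639, 0.0693 and 0.0612). The ferrireductase *STEAP3* was at 16.8, 12.9 and 11.1 CPM against 155, 155 and 184 CPM (log2 fold change 3.60, adjusted p = 2.32e-06) and the iron importer *SLC11A2* at 32.7, 27.0 and 25.1 CPM against 166, 172 and 167 CPM (log2 fold change 2.57, adjusted p = 2.10e-06), each without overlap. *NCOA4*, the receptor that takes ferritin to autophagy, had a log2 fold change of -0.57 (adjusted p = 6.83e-04), and *ACO1*, an iron regulatory protein, of -0.38 (adjusted p = 0.00698). Of 6 genes in the list for selenoprotein synthesis, 2 were higher, 1 lower and 3 not called (50% called, against 67.6% of all genes). *SEPHS1* rose by 1.12 log2 units (adjusted p = 5.13e-05) and *SECISBP2*, which reads the selenocysteine signal, by 0.32 log2 units (adjusted p = 0.0115), while *PSTK*, a kinase of selenocysteine transfer RNA, had a log2 fold change of -0.67 (adjusted p = 0.0043). *SECISBP2* was not called without LV-NC replicate 2, LV-NC replicate 3 or LV-*ATF7* replicate 1 (log2 fold change 0.27, 0.27 and 0.28, adjusted p = 0.0768, 0.0804 and 0.0522).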
